A study of Mus musculus with 2 samples.

Results

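The genes described are 6 members of the adenosine pathway: Entpd1, Nt5e, Ada, Adora2a, Adora2b and Slc29a1. They were taken by symbol from the gene lists of both libraries, and all 6 of them were found among the 19070 genes listed. The data were single-cell RNA counts from mouse tumours grown under the skin from Lewis lung carcinoma (LLC), a transplantable lung tumour line. One library came from tumour tissue of mice given an IgG2a isotype control antibody (control) and 1 from mice given an anti-PD-1 antibody, which blocks a receptor that restrains T cells. According to the series text the anti-PD-1 tumours were taken 7 days after treatment, and it calls the control untreated although its own label names the isotype antibody. Mouse strain, age, the number of mice pooled in each library and a collection time for the control were not given in the sources used here.

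Adenosine is a signalling nucleoside that accumulates outside cells when ATP is released by stressed or dying cells and broken down at the cell surface. Entpd1 (CD39) takes phosphates off ATP and ADP to give AMP, and Nt5e (CD73) turns AMP into adenosine. Adora2a and Adora2b are receptors that raise cyclic AMP, the former with a high and the latter with a lower affinity for adenosine, and both are known for restraining immune cells in tumours. Ada deaminates adenosine to inosine, and Slc29a1 (ENT1) is an equilibrative transporter that carries it across the membrane.

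All 6 are protein-coding in the mm10 (GRCm38) GENCODE M21 annotation. Entpd1 lies at chr19:40612366-40741602 on the plus strand, Nt5e at chr9:88327197-88372092 on the plus strand and Ada at chr2:163726584-163750239 on the minus strand. Adora2a lies at chr10:75316877-75334784 and Adora2b at chr11:62248984-62266453, both on the plus strand, and Slc29a1 at chr17:45585200-45599606 on the minus strand. Because Nt5e, Entpd1 and Adora2b are often studied with hypoxia, and hypoxia genes differed between these libraries, the 250 bases before each start in the RefSeq GRCm38.p6 promoter table were searched for GCGTG, a core of the hypoxia response element, on both strands. Of the 5 members with an entry (all but Adora2a), 3 held 1 match in all and are shown as 30 bases around it, on the plus strand, with the match in capitals (CACGC is GCGTG on the other strand).
Nt5e, chr9:88327459-88327488: tccctgcgggctGCGTGtgctgggccagag
Adora2b, chr11:62248930-62248959: cccccgtaaggcCACGCccccgcccccgtc
Entpd1, chr19:40612336-40612365: ctccttagcggcGCGTGgttcccgttacct
Slc29a1 had 8 windows for alternative starts, with 0 to 2 such matches each, and the Ada window had 0. The same letters stood in 28.2% of all 32851 windows of that length, and the other core form, ACGTG, in 16.6%, so a match describes the sequence only. RefSeq starts Nt5e downstream of the GENCODE start given above, so the Nt5e stretch lies inside the GENCODE gene.

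The control library held 8395 kept cells with a median of 7473 UMIs (unique molecular identifiers, each 1 counted RNA molecule), and the anti-PD-1 library 9422 kept cells with a median of 8744. Levels are in CPM, the UMIs of a gene per 1000000 UMIs of the cells named. The labels name both a probe kit and a 3' protocol, and a probe kit can have more probes for 1 gene than for another, so levels are compared within a gene. Each group had 1 library, so no test was made and no spread between animals is known. The intervals are 95% intervals of counting error alone, and differences between the libraries cannot be told apart from differences between animals or preparations. The libraries shared 107 cell barcodes by sequence.

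Cells were put in classes by the UMIs of fixed marker genes, and a class is called "like" its cell type for that reason. There were 2975 control and 4911 anti-PD-1 LLC tumour-like cells, 597 and 857 macrophage-like cells, and 460 and 625 monocyte-like cells. There were 204 and 148 neutrophil-like, 223 and 86 T cell-like, 117 and 169 NK cell-like, and 66 and 92 dendritic cell-like cells. Fibroblast-like cells numbered 126 and 245. The endothelial-like class had 69 and 34 cells, under the minimum of 50 in anti-PD-1, so it is given by its levels with no ratio. Cells carrying markers of more than 1 class (1588 and 948) and cells of no class (1375 and 1280) were kept apart. Within 20% of the gate lay 328 LLC tumour-like, 96 macrophage-like, 102 monocyte-like and 40 T cell-like cells over both libraries. Among the LLC tumour-like cells the median over cells of the T cell, neutrophil and endothelial marker sums was 0, and that of the macrophage markers was 230.1 CPM, against 16570 CPM in macrophage-like cells. The median of the fibroblast markers there was 254 CPM, against 5737 CPM in fibroblast-like cells. That of the monocyte markers was 225 CPM, against 5158 CPM in monocyte-like cells, and that of the red cell (globin) markers 88.1 CPM.

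LLC markers were counted in every other compared class, at 13.03% to 31.5% of their level in LLC tumour-like cells. RNA from other cells may therefore be part of each level, which was not tested. The control library also held 560 globin-marker barcodes with a median of 1085 UMIs, in which LLC markers summed to 689 CPM, against 1266 CPM in LLC tumour-like cells, and macrophage markers to 2139 CPM. In these barcodes Entpd1 stood at 48.6 CPM, Nt5e at 6.23 CPM and Adora2a at 4.99 CPM. Adora2b stood there at 26.2 CPM (16.2 to 40.02), Ada at 12.5 CPM (5.98 to 22.9) and Slc29a1 at 89.8 CPM (70.2 to 113). These values are given beside low levels for comparison and are no zero: the barcodes were shallow, held more macrophage markers than tumour-like cells (351 and 331 CPM), and red cells are themselves known to carry Adora2b and Slc29a1.

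Over all cells, Adora2b was higher in the anti-PD-1 library and Nt5e and Entpd1 were lower, while Ada, Adora2a and Slc29a1 lay between -0.11 and 0.12 in log2 ratio. None of the 6 was past 2-fold (0 of 6), against 3.77% of the 12010 genes with at least 200 UMIs over both libraries, 66 of them higher and 387 lower. The median log2 ratio (anti-PD-1 over control, as for every ratio below) was -0.05 over the 6 members and -0.02 over the 12010 genes. Adora2b was the member nearest to an end of that distribution, with 1.84% of the genes having a higher ratio, and 4.86% of the genes had a lower ratio than Nt5e.

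**Figure D1:**
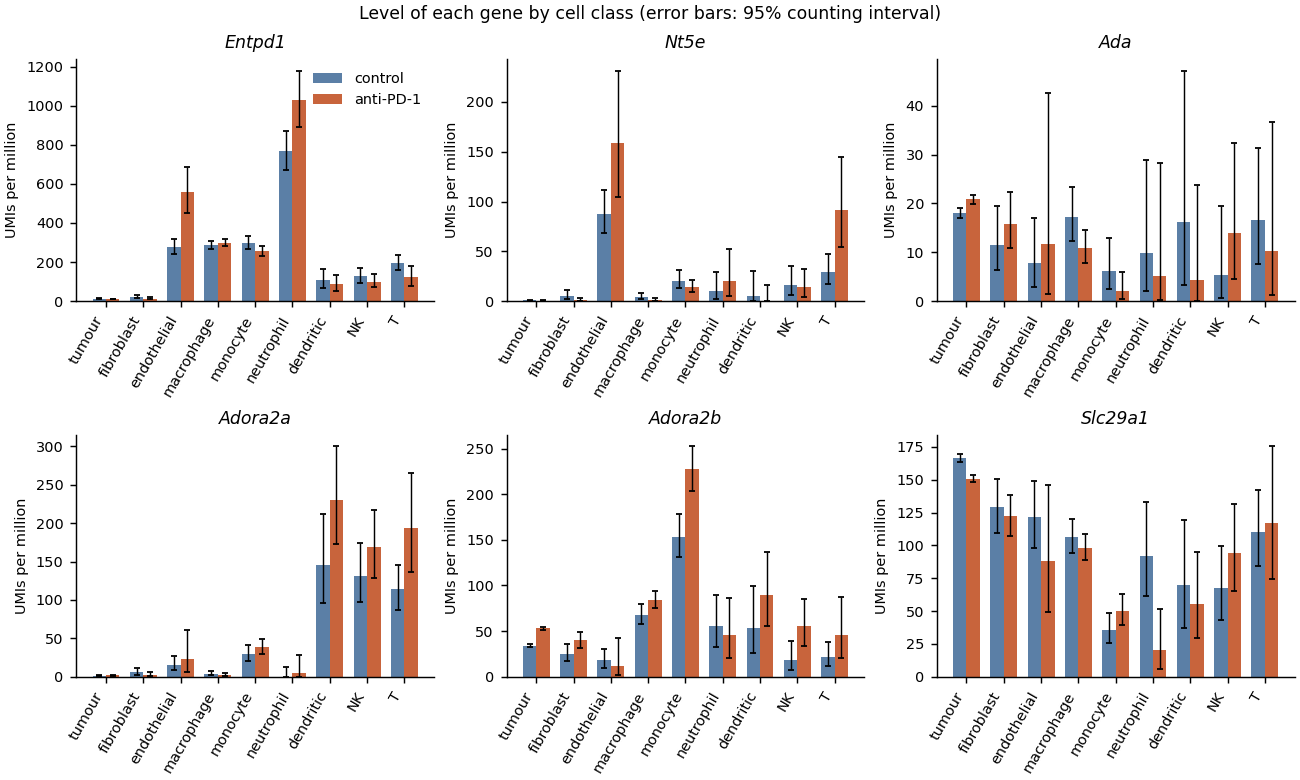
Level of each gene in CPM (vertical axis, linear from 0, own scale per panel) in each cell class of the control (blue) and anti-PD-1 (orange) library, with 95% counting intervals as error bars. Entpd1 is tallest in neutrophil-like cells (768 and 1028 CPM), Adora2a in dendritic, NK and T cell-like cells, and Adora2b in monocyte-like cells (154 and 227 CPM).

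Entpd1, which starts the breakdown of extracellular ATP, had its highest levels in myeloid and endothelial-like cells. Its level over all cells was 39.2 CPM in control (4434 UMIs) and 33.5 CPM in anti-PD-1 (3867 UMIs), a log2 ratio of -0.22 (-0.29 to -0.16). By class, the neutrophil-like cells stood highest, at 768 CPM (672 to 873) in control and 1028 CPM (891 to 1180) in anti-PD-1. These intervals did not overlap that of any other class in their own library. In control, monocyte-like cells at 297 CPM, macrophage-like cells at 287 CPM and endothelial-like cells at 276 CPM followed with overlapping intervals. In anti-PD-1, macrophage-like cells had 299 CPM and monocyte-like cells 257 CPM, with intervals that just overlapped (282.6 to 316 and 232 to 283.6). The 34 endothelial-like cells of that library held 560 CPM (453 to 684). T cell-like cells had 195 and 122 CPM, NK cell-like cells 126 and 99.7 CPM, and dendritic cell-like cells 108 and 85.2 CPM.

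LLC tumour-like cells had the lowest Entpd1 level, 13.1 CPM in control and 9.93 CPM in anti-PD-1, next to fibroblast-like cells at 21.5 and 12.9 CPM. The tumour levels were 4.58% and 3.32% of that in macrophage-like cells, while macrophage markers in the tumour-like cells stood at 1.91% and 1.43% of theirs. Both tumour levels lay below the 48.6 CPM of the globin-marker barcodes.

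The ratio of Entpd1 between the libraries differed in sign among classes. It was 0.42 (0.14 to 0.70) in neutrophil-like cells, which rests on 233 and 203 UMIs and was 0.10 when classes were taken from clusters. It was -0.67 (-1.38 to -0.02) in T cell-like cells, with 106 and 24 UMIs and a range of -1.25 to -0.52 over the processing alternatives, and -0.40 (-0.54 to -0.26) in LLC tumour-like cells. The T cell-like class was made of different cells in each library: those with Cd8a or Cd8b1 and no CD4 marker were 157 of 223 in control and 26 of 86 in anti-PD-1. Its Entpd1 ratio was -0.83 (-1.84 to 0.04) in these, 0.07 (-1.11 to 1.06) in cells with Pdcd1 and 0.70 (-0.79 to 1.88) in cells with at least 2 exhaustion genes, so each of these intervals held 0. In macrophage-like cells it was 0.06 (-0.08 to 0.20) and in monocyte-like cells -0.21 (-0.43 to 0.00), intervals that hold 0 or reach it. When the share of each class in the library's UMIs was held at that of control, an alternative chosen after seeing the data, the ratio over all cells was 0.01.

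**Figure D2:**
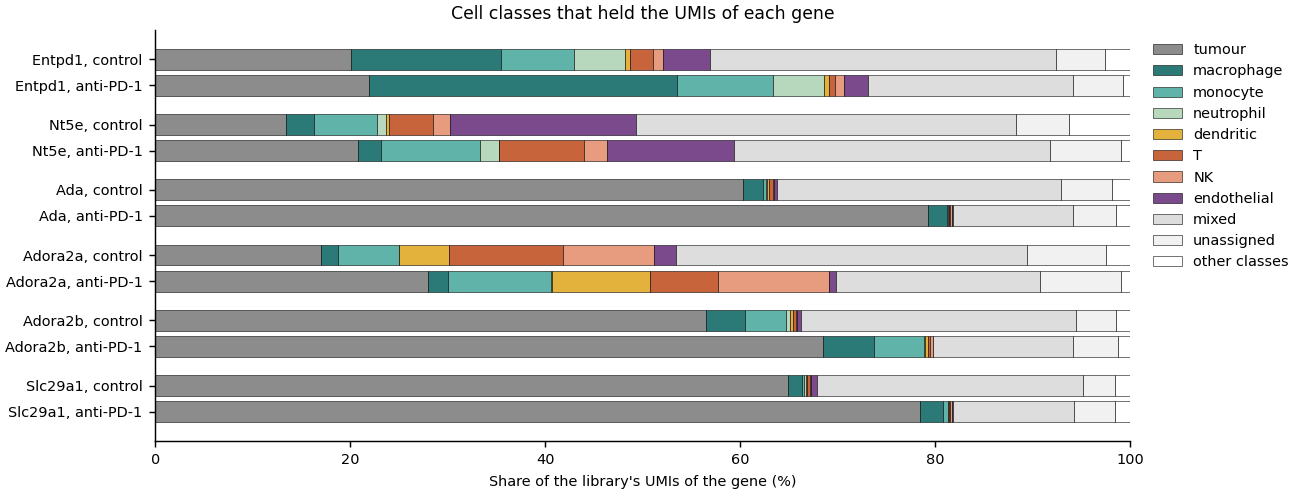
Share of each library's UMIs of a gene (horizontal axis, %) that came from each cell class, 1 bar per gene and library. Tumour-like cells (dark grey) hold 20.03% and 22.0% of Entpd1 but 64.9% and 78.4% of Slc29a1, and mixed cells (light grey) hold a smaller part of all 6 genes in anti-PD-1. Over all genes, tumour-like cells also held most UMIs of each library, and mixed cells held fewer UMIs in anti-PD-1 (15449880) than in control (32191347).

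Within T cell-like cells, Entpd1 was higher in cells with UMIs of the exhaustion genes Pdcd1, Havcr2, Lag3, Tigit and Tox, which mark T cells under lasting stimulation. In control, the 125 cells with UMIs of at least 2 of these genes had 271 CPM (218 to 334) and the other 98 cells 78.7 CPM (45.9 to 126), a log2 ratio of 1.78 (1.02 to 2.63). In anti-PD-1, 9 such cells had 440 CPM (161 to 957, from 6 UMIs) and the other 77 had 98.4 CPM (58.3 to 155), a log2 ratio of 2.16 (0.54 to 3.55). The levels in cells with few exhaustion genes overlapped between the libraries, and cells with more of them were 125 of 223 in control and 9 of 86 in anti-PD-1. Macrophage markers were not higher with the exhaustion genes: they summed to 1895 CPM with and 2046 CPM without in control, and to 513 and 3437 CPM in anti-PD-1. Median depths were 1697 against 1378 UMIs in control and 1487 against 1329 UMIs in anti-PD-1.

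Among macrophage-like cells, those with more Arg1 and Mmp12 than Lyve1 and Folr2 UMIs, a pattern of recruited tumour macrophages, had 368 CPM of Entpd1 in control against 260 CPM in those with more Lyve1 and Folr2, a pattern of resident macrophages (log2 ratio 0.50, 0.26 to 0.74). In anti-PD-1 the same groups had 292 and 299 CPM (-0.04, -0.32 to 0.24). Between the libraries, the Entpd1 ratio was -0.33 (-0.66 to -0.02) with more Arg1 and Mmp12 and 0.20 (0.02 to 0.39) with more Lyve1 and Folr2. These groups were 188 and 229 of 597 control cells and 110 and 558 of 857 anti-PD-1 cells. The part of this cell mix in the ratio of the whole class was not tested. Monocyte-like cells above the median of a hypoxia list of 12 genes had 325 CPM in anti-PD-1 against 214 CPM in those at or below it (0.60, 0.30 to 0.90). In control the values were 314 and 269 CPM, and the interval of that difference held 0 (-0.12 to 0.56).

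Nt5e, the enzyme that makes adenosine, was the scarcest of the 6 in UMIs. Over all cells it stood at 3.1 CPM in control (351 UMIs) and 1.79 CPM in anti-PD-1 (207 UMIs), a log2 ratio of -0.79 (-1.04 to -0.54). Endothelial-like cells had the highest level, 87.7 CPM (68.0 to 111) in control and 159 CPM (105 to 231) in anti-PD-1, and held 19.1% and 13.04% of all Nt5e UMIs. Mixed cells held more of them, 39.0% and 32.4%, and the many tumour-like cells 13.4% and 20.8%. Endothelial-like cells were 0.82% of the cells in control and 0.36% in anti-PD-1. With class shares held at those of control, the ratio over all cells was 0.15, the opposite sign. That value has no interval and includes the endothelial-like level of anti-PD-1, which rests on 27 UMIs in 34 cells. The part of the class mix in the pooled ratio was not tested. Fewer cells of a type and less RNA per cell cannot be told apart in the pooled levels.

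T cell-like cells came next, at 29.4 CPM in control (16 UMIs) and 91.5 CPM in anti-PD-1 (18 UMIs), a log2 ratio of 1.64 (0.58 to 2.71; 0.96 to 1.68 over the alternatives). At these counts its interval overlapped that of monocyte-like cells in control and that of endothelial-like cells in anti-PD-1. Nt5e was split the opposite way from Entpd1 in control: cells with at least 2 exhaustion genes had 9.14 CPM (3 UMIs) and the others 60.2 CPM (13 UMIs), a log2 ratio of -2.72 (-5.17 to -0.86). In anti-PD-1, all 18 UMIs were in the cells with 0 or 1 exhaustion genes, at 98.4 CPM (58.3 to 155), and the other 9 cells held 0 UMIs, with an upper bound of 270 CPM. Split by Pdcd1 alone, the log2 ratio was -1.89 (-3.98 to -0.17) in control and 0.00 (-2.43 to 1.82) in anti-PD-1. The class held different cells in each library: those with 0 or 1 exhaustion genes were 98 of 223 in control and 77 of 86 in anti-PD-1. In these cells the control level of Nt5e, 60.2 CPM, lay within the anti-PD-1 interval of 58.3 to 155 CPM. The part of this cell mix in the ratio of 1.64 was not tested. Only 1 of 223 control and 2 of 86 anti-PD-1 T cell-like cells had UMIs of both Entpd1 and Nt5e, where 70 and 11 had Entpd1 and 14 and 14 had Nt5e. Independence would give 4.39 and 1.79 cells, counts too small to show a difference.

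Monocyte-like cells had 20.5 and 14.1 CPM of Nt5e, mostly in those with more hypoxia genes. Cells above the median of the hypoxia list had 29.5 CPM in control (21 UMIs) and 26.4 CPM in anti-PD-1 (15 UMIs), and cells at or below it had 4.89 CPM (2 UMIs) and 6.50 CPM (6 UMIs). The log2 ratios were 2.59 (0.56 to 5.73) and 2.02 (0.57 to 3.67), the same direction in both libraries. Endothelial markers in the same groups were 131 and 95.5 CPM in control and 96.6 and 102 CPM in anti-PD-1.

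NK cell-like cells had 16.1 and 13.8 CPM of Nt5e, from 6 and 5 UMIs, and neutrophil-like cells had 3 and 4 UMIs. LLC tumour-like cells had 0.69 CPM in control (47 UMIs in 2975 cells) and 0.50 CPM in anti-PD-1 (43 UMIs in 4911 cells), below the 6.23 CPM of the globin-marker barcodes. In macrophage-like cells it stood at 4.19 and 1.23 CPM (10 and 5 UMIs). Dendritic cell-like cells had 1 UMI in control and 0 in anti-PD-1, where 3 counts would be 12.8 CPM.

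**Figure D3:**
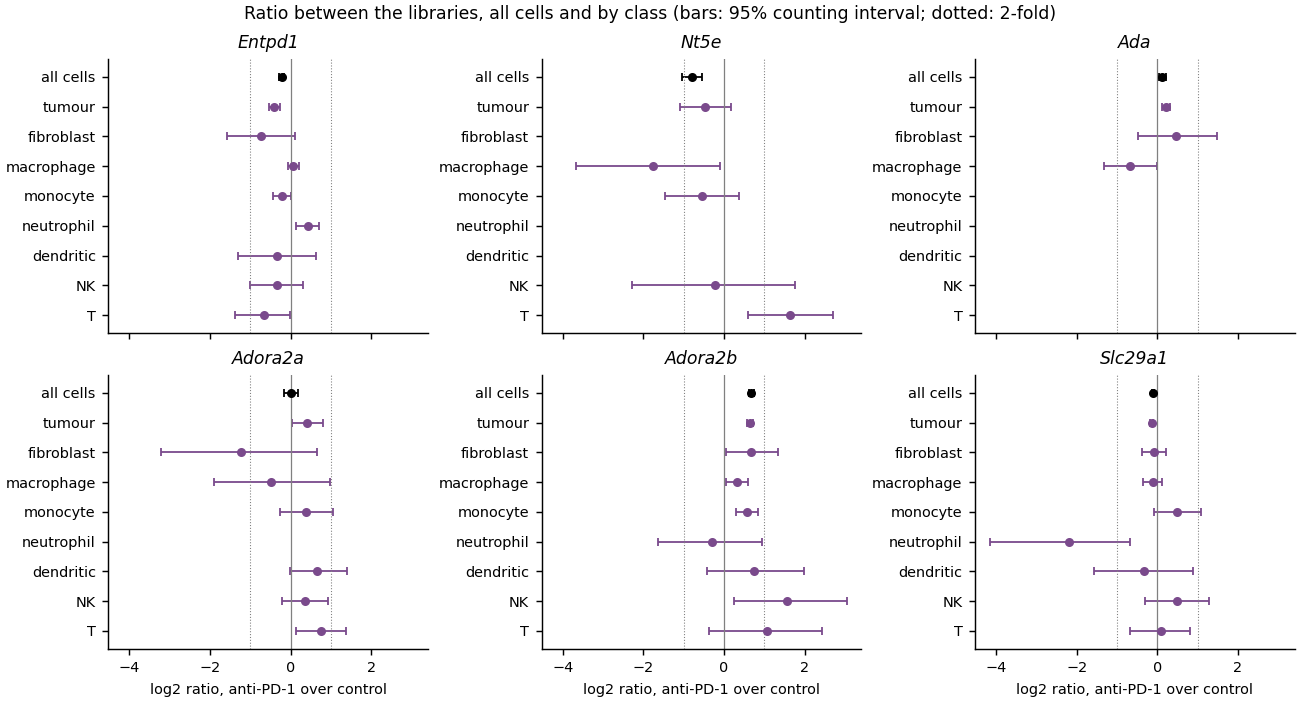
Log2 ratio of anti-PD-1 over control (horizontal axis) for each gene over all cells (black) and in each class (purple), with 95% counting intervals and dotted lines at 2-fold. Classes with 3 or fewer UMIs in either library have no point. Adora2b lies to the right of 0 over all cells (0.68) and in tumour-like (0.65), monocyte-like (0.56) and macrophage-like cells (0.31), whereas Entpd1 and Nt5e have classes on both sides of 0.

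Adora2a, the high-affinity receptor, was highest in dendritic, NK and T cell-like cells. Over all cells it was 4.66 CPM in control and 4.68 CPM in anti-PD-1 (528 and 540 UMIs; log2 ratio 0.00, -0.17 to 0.18). Dendritic cell-like cells had 145 CPM (95.8 to 211) and 230 CPM (173 to 300), NK cell-like cells 132 and 169 CPM, and T cell-like cells 114 and 193 CPM. These 3 classes overlapped one another in each library, and all stood clear of monocyte-like cells at 29.5 and 38.2 CPM.

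Macrophage-like cells had 3.77 and 2.70 CPM of Adora2a, under the 4.99 CPM of the globin-marker barcodes. Neutrophil-like cells had 0 UMIs in control, where 3 counts would be 9.88 CPM, and 1 UMI in anti-PD-1. Monocyte-like cells thus stood at 781% of the macrophage-like level in control and 1415% in anti-PD-1. The level in LLC tumour-like cells, 1.33 and 1.77 CPM, was below the globin-marker barcodes too.

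Among dendritic cell-like cells, Adora2a lay in those with Ccr7 or Ccl22, markers of migratory dendritic cells that also served to set the class. They had 313 CPM (206 to 455) in 36 control cells and 475 CPM (347 to 633) in 40 anti-PD-1 cells. Cells led by Cd209a, a marker of conventional and monocyte-derived dendritic cells, had 0 UMIs in 12 control cells and 38.7 CPM (3 UMIs) in 30 anti-PD-1 cells. In anti-PD-1 the log2 ratio between the groups was 3.61 (1.98 to 5.94). Entpd1 went the other way in control, with 34.8 CPM in cells with Ccr7 or Ccl22 and 192 CPM in those with Cd209a (3 and 8 UMIs; log2 ratio -2.46, -5.01 to -0.41). Adora2b had 61.9 and 155 CPM in the same groups of anti-PD-1, with an interval that held 0 (-1.32, -3.02 to 0.20).

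The Adora2a ratio was 0.76 (0.14 to 1.37; 0.46 to 1.03 over the alternatives) in T cell-like cells, 0.66 (-0.03 to 1.39) in dendritic cell-like cells and 0.36 (-0.21 to 0.93) in NK cell-like cells. Only the first of these intervals left out 0. T cell-like cells with Pdcd1, the gene of PD-1, had 133 CPM in control (40 UMIs in 124 cells) and 458 CPM in anti-PD-1 (15 UMIs in 23 cells), a ratio of 1.79 (0.82 to 2.67). Those without Pdcd1 had 90.4 and 140 CPM. In cells with Cd8a or Cd8b1 and no CD4 marker, which were 157 of the 223 control and 26 of the 86 anti-PD-1 cells, the ratio had the other sign, with an interval that held 0 (-0.28, -1.498 to 0.77), from 45 and 9 UMIs. LLC tumour-like cells gave 0.41 (0.02 to 0.80) from 90 and 151 UMIs, and -0.01 when classes were taken from clusters, so the direction there depended on how cells were classed.

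**Figure D4:**
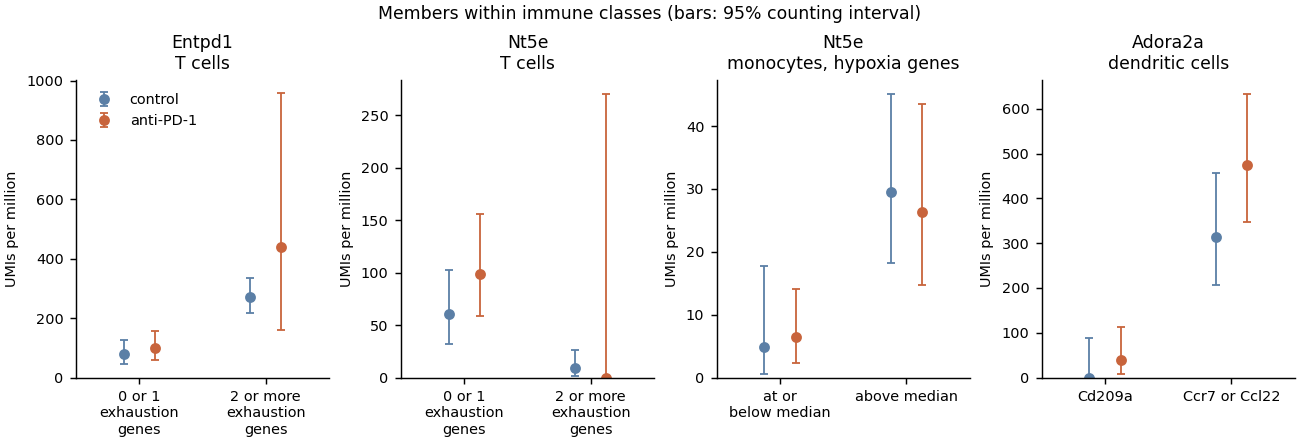
Levels in CPM (vertical axis, own scale per panel) in groups of T cell-like, monocyte-like and dendritic cell-like cells of the control (blue) and anti-PD-1 (orange) library, with 95% counting intervals. In T cell-like cells with 2 or more exhaustion genes Entpd1 is higher, and Nt5e is lower in control. In anti-PD-1 that group was 9 cells with no Nt5e UMI, and its interval covers the level of the other group. Nt5e is higher in monocyte-like cells above the median of the hypoxia genes, and Adora2a is higher in dendritic cell-like cells with Ccr7 or Ccl22.

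Adora2b, the low-affinity receptor, had a ratio above 0 in each compared class except neutrophil-like cells (-0.30, -1.65 to 0.95). Over all cells it was 35.9 CPM in control (4064 UMIs) and 57.4 CPM in anti-PD-1 (6621 UMIs), 1.60-fold higher (log2 ratio 0.68, 0.62 to 0.73). With each cell thinned to 3000 UMIs, 9.81% of 5424 control cells and 15.9% of 7139 anti-PD-1 cells had a UMI of it, and without thinning 28.5% and 38.6%. Of the globin-marker barcodes 3.75% had a UMI without thinning, at a median depth of 1085 UMIs, and 11.1% (3.11 to 26.1) of the 36 deep enough after thinning, an interval that holds the shares of both libraries.

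Monocyte-like cells had the highest Adora2b level, 154 CPM (131 to 178) in control and 227 CPM (204 to 253) in anti-PD-1, clear of all other classes in each library. The ratio there was 0.56 (0.30 to 0.84), and 3.398% of the 3061 genes measured in this class had a higher one. Macrophage-like cells followed in control with 67.9 CPM and stood at 84.4 CPM in anti-PD-1 (0.31, 0.04 to 0.59). From clusters the macrophage ratio was 0.81. Cells with more Arg1 and Mmp12 had 75.0 and 115 CPM and those with more Lyve1 and Folr2 had 51.9 and 77.4 CPM, with ratios of 0.61 (0.02 to 1.21) and 0.58 (0.18 to 0.99). Monocyte-like cells above and at or below the median of the hypoxia list had the same level in control, 153 and 154 CPM. NK cell-like cells, with 7 and 20 UMIs, had a ratio of 1.56 (0.26 to 3.04), from 18.8 CPM to 55.4 CPM. Those UMIs lay in 6 of 117 NK cell-like cells in control and in 12 of 169 in anti-PD-1. With each cell thinned to 3000 UMIs, the share with a UMI was 6.67% (30 cells) in control and 25.8% (31 cells) in anti-PD-1. Thinned to 1500 UMIs the order was reversed, at 4.48% (67 cells) and 2.13% (94 cells). The intervals of these shares overlapped at both depths, and this ratio was not recomputed under the processing alternatives.

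LLC tumour-like cells held 56.5% and 68.5% of all Adora2b UMIs. Of the UMIs of all genes they held 67678592 of 113219015 in control and 85481512 of 115405551 in anti-PD-1. Their Adora2b level was 33.9 CPM (32.6 to 35.4) in control and 53.1 CPM (51.6 to 54.7) in anti-PD-1, a ratio of 0.65 (0.57 to 0.72), and 3.08% of 11131 genes had a higher one. The control level lay within the interval of the globin-marker barcodes. None of the 5 members with at least 200 UMIs in tumour-like cells was past 2-fold, against 2.27% of the genes, and their median log2 ratio was 0.21 against 0.01 over all genes tested. In macrophage-like cells 0 of 3 such members were past 2-fold, against 1.93% of 6271 genes, and in monocyte-like cells 0 of 2, against 1.14% of 3061 genes.

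Tumour-like cells were then grouped by pairs of genes that had set apart groups of tumour cells in earlier work on these data, and Adora2b was higher in anti-PD-1 in each of the 7 groups. Cells led by Gria3 and Gpnmb had the highest level in both libraries, 47.9 CPM (40.8 to 55.8) in control and 75.5 CPM (71.1 to 80.1) in anti-PD-1. Cells led by Ncam1 and F2r had the lowest, 23.8 and 36.2 CPM. The ratios of the 7 groups ran from 0.40 in cells led by Il24 and Msln to 0.85 in cells led by the interferon-induced genes Ifit1 and Ifit3. All their intervals left out 0 except that of the Dkk2 and Col8a1 group, which had 47 control cells (0.52, -0.04 to 1.13). Macrophage markers summed to 346 CPM in the Gria3 and Gpnmb group of each library, close to the 351 and 331 CPM of all tumour-like cells.

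Adora2b was not higher in tumour-like cells with more hypoxia genes. All 12 genes of that list were lower in anti-PD-1 tumour-like cells, with a median log2 ratio of -0.59. In control, the cells with low, middle and high sums of the list had 35.0, 33.3 and 34.2 CPM of Adora2b, with overlapping intervals. In anti-PD-1 they had 57.9, 52.8 and 46.6 CPM, and the high group stood below the low group (log2 ratio -0.31, -0.43 to -0.20). At matched groups the ratio between the libraries was 0.73 (0.51 to 0.96) with low, 0.66 (0.54 to 0.79) with middle and 0.45 (0.33 to 0.57) with high hypoxia genes. Median depth in the low and high groups was 11455 and 18910.5 UMIs in control, and 11010.5 and 16532 UMIs in anti-PD-1; its part in the order of the groups was not tested.

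Cells with under 3 UMIs of the proliferation genes Mki67 and Top2a had more Adora2b than the others, 44.4 against 33.1 CPM in control and 76.5 against 49.6 CPM in anti-PD-1. Slc29a1 went the other way, at 117 against 170 CPM and 100 against 158 CPM. The cells with few proliferation UMIs were shallower, with medians of 9142 against 18989 UMIs in control and 8090 against 15933 UMIs in anti-PD-1. The part of depth in this split was not tested.

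**Figure D5:**
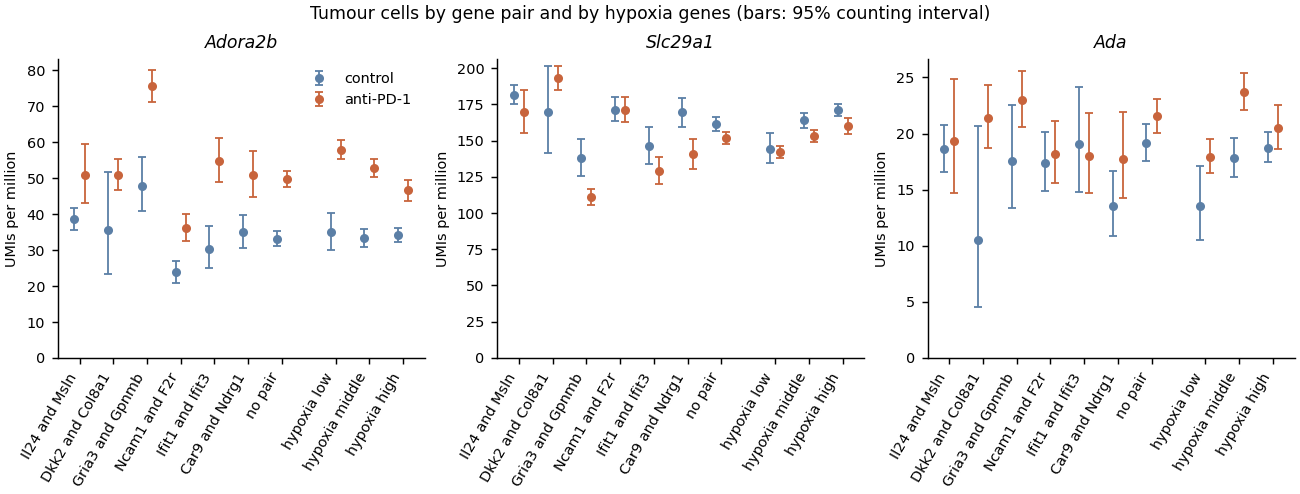
Levels of Adora2b, Slc29a1 and Ada in CPM (vertical axis from 0, own scale per panel) in groups of LLC tumour-like cells, by leading gene pair and by the summed hypoxia genes, in the control (blue) and anti-PD-1 (orange) library with 95% counting intervals. Adora2b is higher in anti-PD-1 in each group (for example 75.5 against 47.9 CPM with Gria3 and Gpnmb), whereas Slc29a1 and Ada overlap between the libraries in several.

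Ada, the deaminase that removes adenosine, had 60.3% of its control UMIs and 79.3% of its anti-PD-1 UMIs in tumour-like cells. These cells held 67678592 of the 113219015 control UMIs of all genes and 85481512 of the 115405551 anti-PD-1 UMIs. A large share there is therefore not particular to Ada. Over all cells Ada was 17.9 CPM (2024 UMIs) and 19.5 CPM (2247 UMIs), a log2 ratio of 0.12 (0.04 to 0.21). In tumour-like cells it was 18.0 and 20.8 CPM (0.21, 0.10 to 0.32), and in macrophage-like cells 17.2 and 10.8 CPM (-0.67, -1.32 to -0.02; -1.04 to -0.44 over the alternatives; 41 and 44 UMIs). In the order of Ada levels each class overlapped the next in both libraries. Over the whole order, tumour-like cells stood clear of monocyte-like cells, which had 6.25 and 2.01 CPM (7 and 3 UMIs), while the interval of the globin-marker barcodes (5.98 to 22.9 CPM) held the control tumour level. Within tumour-like cells Ada was lowest in the low hypoxia group, at 13.5 CPM in control and 17.9 CPM in anti-PD-1, against 18.7 and 20.5 CPM in the high group (log2 ratios 0.47, 0.12 to 0.85, and 0.19, 0.01 to 0.37). The low group was also the shallower in each library, and the part of depth was not tested. When each cell weighed the same, the ratio over all cells was -0.13, the opposite sign.

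Slc29a1, the transporter, had the most UMIs of the 6, 17366 in control and 16445 in anti-PD-1. Its level over all cells was 153 and 142 CPM (log2 ratio -0.11, -0.14 to -0.08), and 0.03 was the ratio when each cell weighed the same. Tumour-like cells had the highest level, 167 CPM (163 to 170) and 151 CPM (148 to 153), above fibroblast-like cells at 129 and 122 CPM. The other classes lay from 20.3 to 122 CPM, and in T, NK and dendritic cell-like cells, macrophage-like and neutrophil-like cells of control the intervals overlapped that of the globin-marker barcodes. Monocyte-like cells, at 35.7 and 50.2 CPM, were below those barcodes in both libraries. Neutrophil-like cells had 28 and 4 UMIs of it, 92.3 and 20.3 CPM (log2 ratio -2.19, -4.16 to -0.67).

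Within macrophage-like cells Slc29a1 was higher in those with more Lyve1 and Folr2, 134 CPM in control and 113 CPM in anti-PD-1, than in those with more Arg1 and Mmp12, 67.8 and 45.4 CPM. The log2 ratios between these groups were -0.98 (-1.48 to -0.51) and -1.31 (-2.06 to -0.65). LLC markers in the 4 sets of cells were 227 and 177 CPM with Lyve1 and Folr2 and 216 and 184 CPM with Arg1 and Mmp12. Macrophage-like cells above the median of the hypoxia list had less Slc29a1 than the others, 90.2 against 132 CPM in control and 79.1 against 108 CPM in anti-PD-1 (-0.55, -0.92 to -0.19, and -0.45, -0.78 to -0.13). Tumour-like cells were split the opposite way: the low hypoxia group had 144 and 142 CPM and the high group 171 and 160 CPM (0.24, 0.13 to 0.35, and 0.18, 0.11 to 0.24). In both classes and libraries the hypoxia group with more Slc29a1 had the higher median depth, and the part of depth was not tested. Cells led by Gria3 and Gpnmb had the lowest Slc29a1 of the 7 gene-pair groups, 138 and 111 CPM, the group in which Adora2b was highest; its control interval overlapped that of the Ifit1 and Ifit3 group.

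Entpd1, whose product feeds adenosine synthesis, and the receptor Adora2b were counted together in 69 of 597 macrophage-like cells in control, where independence would give 60.4, and 170 of 857 in anti-PD-1, where it would give 134. In monocyte-like cells they were together in 55 of 460 and 87 of 625, where independence would give 49.2 and 78.7. Deep cells hold more UMIs of any gene, so a count above that of independence describes depth as well.

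The rest of the pathway was read from fixed lists, of which 60 of 63 symbols were listed. Over all cells 48 of these had at least 200 UMIs and 0 were past 2-fold in either direction, with a median log2 ratio of 0.04 against -0.02 over all genes tested. The list of nucleotide receptors, most of them for ATP or ADP and P2ry6 for UDP, had a median of 0.47, with 6 of 7 measured above the median gene. P2ry12 was 2.87 CPM in control and 4.68 CPM in anti-PD-1 (0.70, 0.50 to 0.91), and P2ry13 2.51 and 3.95 CPM (0.66, 0.44 to 0.87). P2rx4, an ATP-gated cation channel with the most UMIs of that list, was 81.0 and 112 CPM (0.47, 0.43 to 0.51). In macrophage-like cells 3 of the 32 pathway genes measured were past 2-fold, 1 higher and 2 lower, against 1.93% of all genes there. All 5 measured receptors were above the median gene, and P2ry13, a receptor for ADP, was past 2-fold higher, with 24.7 and 51.8 CPM (1.07, 0.64 to 1.51), followed by P2ry12 with 38.6 and 63.3 CPM (0.71, 0.37 to 1.07).

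The 3 measured channels that release ATP were above the median gene over all cells. Gja1 (connexin 43) was 815 and 1318 CPM (0.69, 0.68 to 0.71). In tumour-like cells it was 823 and 1367 CPM (0.73, 0.72 to 0.75), and P2rx7, an ATP-gated channel, was 21.6 and 36.4 CPM (0.75, 0.66 to 0.84). Ampd3, an AMP deaminase, had 2.88 and 4.41 CPM there (0.61, 0.36 to 0.87). Cd38 and Bst1, which break down NAD outside cells, were lower in tumour-like cells, with log2 ratios of -0.57 (-0.70 to -0.43) and -0.68 (-0.83 to -0.53). The fixed list for removal of adenosine held Adk, Pnp, Ahcy and Dpp4, not all of which remove it themselves. All 4 were below the median gene over all cells, and their log2 ratios lay between -0.23 and -0.12. Adk, adenosine kinase, had 55.4 and 49.1 CPM. The other adenosine receptors were scarce: Adora3 had 275 and 252 UMIs (-0.15, -0.41 to 0.10) and Adora1 39 and 8.

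Of the G protein and cyclic AMP genes, 20 were measured over all cells, 7 above and 13 below the median gene, with a median log2 ratio of -0.21. Gnas, the stimulatory G protein subunit to which both A2 receptors couple, had 728 and 528 CPM (-0.46, -0.48 to -0.45). The inhibitory subunit Gnai2 was lower as well, at 470 and 344 CPM (-0.45, -0.47 to -0.43). Adcy7, an adenylyl cyclase, was higher, at 212 and 299 CPM (0.50, 0.47 to 0.52). Rgs2, a regulator of G proteins, was 7.99 and 4.39 CPM (-0.86, -1.02 to -0.71), and Nr4a3, a gene that cyclic AMP induces, 6.07 and 4.09 CPM (-0.57, -0.74 to -0.40). In tumour-like cells Nr4a3 had 2.98 and 1.8 CPM (-0.73, -1.04 to -0.42). In macrophage-like cells 14 genes of this list were measured, and Nr4a2 and Crem, which cyclic AMP also induces, were past 2-fold lower, at 59.96 and 27.5 CPM (-1.13, -1.495 to -0.76) and 197 and 95.2 CPM (-1.05, -1.24 to -0.85), and Nr4a1 was 387 and 204 CPM (-0.92, -1.06 to -0.79). Adcy3, an adenylyl cyclase, was higher there, at 34.8 and 62.6 CPM (0.85, 0.48 to 1.22).

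In monocyte-like cells 16 list genes had at least 200 UMIs and 0 were past 2-fold, against 1.14% of all genes there. The concentrative nucleoside transporter Slc28a2 was 129 and 230 CPM (0.83, 0.55 to 1.12), the lysosomal transporter Slc29a3 168 and 241 CPM (0.52, 0.26 to 0.78) and P2rx4 213 and 354 CPM (0.73, 0.51 to 0.96). Nr4a1 was lower, at 712 and 420 CPM (-0.76, -0.91 to -0.61), as was Crem, at 218 and 174 CPM (-0.32, -0.58 to -0.07), while the interval of Gnas held 0 (-0.19, -0.41 to 0.02).

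The genes most like each member in level were found by Pearson's r of log2(CPM + 1) over the 18 combinations of class and library with at least 50 cells. These points share 2 libraries and differ in depth, and r is given as a description. For Entpd1 they were Ets2 (0.93), Srgn (0.93) and Cxcr4 (0.92), for Nt5e Spata13 (0.90), Pglyrp1 (0.87) and Vamp5 (0.81), and for Ada Fcsk (0.87), Kdm8 (0.82) and Clpx (0.82). For Adora2a they were Klrk1 (0.94), which is 1 of the NK cell markers used to class cells, Fyn (0.93) and BC035044 (0.91). For Adora2b they were Npc2 (0.90), Il6ra (0.90) and Dnase1l1 (0.86), and for Slc29a1 Jkamp (0.90), Mtx3 (0.90) and Eif2ak4 (0.89). Among the members themselves the highest r was that of Ada with Slc29a1, 0.71, and the lowest that of Entpd1 with Slc29a1, -0.62.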

How the data were processed

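The deposited values are raw UMI counts, whole numbers for each gene in each barcode. A Flex probe kit and a 3' protocol of 10x Genomics both appear in the labels' protocol. The submitters' processing notes give Cell Ranger 7.0.1 and mm10, whereas per the file headers the matrices were written by Cell Ranger 9.0.1. The libraries held 8441 barcodes with 113268618 UMIs (control) and 9423 barcodes with 115407230 UMIs (anti-PD-1).

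Kept barcodes had 300 genes or more and no more than 20% of UMIs from mitochondrial genes. A cell took a class other than LLC from at least 3 UMIs on at least 2 fixed markers at 5 times the level over all cells. A cell with LLC markers, or with another class above 0.5 of its best enrichment, was called mixed, except between macrophage and monocyte. LLC tumour-like cells needed 500 CPM of LLC markers and no other class. One monocyte marker was not listed. No doublet caller was run; mixed cells were kept apart, and cells over 3 times the median UMIs of their class and library were left out in an alternative. A gene pair led a tumour-like cell from 3 UMIs at 2 times its level over tumour-like cells, the highest pair taken. Hypoxia groups were cut at equal numbers of tumour-like cells over both libraries. UMIs were summed and scaled to CPM. Intervals are exact Poisson for CPM, exact conditional binomial for log2 ratios and exact Clopper-Pearson for shares, all at 95%. PCR duplicates are removed by UMIs, and the intervals cover counting error only. No ratio is given where both libraries had 3 or fewer UMIs. With 1 library per group no test was made; "past 2-fold" was counted among genes with at least 200 UMIs.

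The members, gene lists, gene pairs and markers were chosen with earlier results of these data known. Named pathway genes are, per comparison, the 3 log2 ratios farthest from the median gene in each direction among list genes with at least 200 UMIs, and the gene of most UMIs in a list; genes of like level are the 3 of highest r. Adora1, Gnai2 and Adcy7 were named after their values were seen. The scripts were tested on simulated data. Python 3.11.15, numpy 2.4.6, scipy 1.17.1 and pandas 2.3.3 were used, and leidenalg for clusters in an alternative. Sequences are from RefSeq GRCm38.p6.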

Additional observations from a re-analysis of the deposited data

Results flagged for a closer look

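For 3 genes, classes gave log2 ratios between the libraries whose counting intervals lay on opposite sides of 0; with 1 library per group, none of these differences between classes was tested. Entpd1 had a ratio of 0.42 in neutrophil-like cells (0.10 with classes from clusters) but -0.67 in T cell-like cells and -0.40 in LLC tumour-like cells. The tumour levels were low, 13.1 and 9.93 CPM, below the 48.6 CPM of the globin-marker barcodes. Nt5e had 1.64 in T cell-like cells (16 and 18 UMIs) and -1.77 in macrophage-like cells (10 and 5 UMIs); the macrophage levels, 4.19 and 1.23 CPM, both lay below the 6.23 CPM of the globin-marker barcodes. Ada had 0.21 in LLC tumour-like cells and -0.67 in macrophage-like cells. The T cell-like class held different cells in each library: those with at least 2 exhaustion genes were 125 of 223 in control and 9 of 86 in anti-PD-1.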

How the results depend on the processing

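No paired analysis was possible because each group has 1 library. Holding the class mix at control, an alternative chosen after seeing the data, gave log2 ratios over all cells of 0.014 for Entpd1, 0.15 for Nt5e and 0.36 for Adora2a. Weighing each cell the same gave -0.13 for Ada, 0.034 for Slc29a1 and 0.20 for Adora2a. Of 163 values recomputed for the 26 class results, 157 had the sign of the reported value and 6 the opposite. Classes from clusters gave 4 of these: -0.014 for Adora2a in LLC tumour-like and -0.06 in monocyte-like cells, and -0.14 and -0.92 for Slc29a1 in monocyte-like and T cell-like cells. Slc29a1 in T cell-like cells was also -0.88 without cells over 3 times the median UMIs and -0.71 with equal weight per cell. Fibroblast-like cells could not be named from clusters. Over all alternatives the Adora2b ratio lay between 0.59 and 0.68 in LLC tumour-like cells, 0.42 and 0.60 in monocyte-like cells and 0.29 and 0.81 in macrophage-like cells, and that of Entpd1 in neutrophil-like cells between 0.10 and 0.36. Thinned to 1500 UMIs instead of 3000, the shares of control and anti-PD-1 cells with a UMI were 9.30% and 7.33% for Entpd1, 2.44% and 2.54% for Ada, 6.22% and 9.28% for Adora2b, and 17.9% and 16.1% for Slc29a1. Admitting genes of low count gave 5898 genes over 2-fold lower against 387; the cause was not tested. Alternatives added after seeing the data were the held class mix, leaving out globin-marker cells, equal weights for gene-pair groups and adding weakly mixed tumour cells.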
